A study of Mus musculus with 26 samples.

Results

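Sox2, Sox4, Sox5, Sox6, Sox9, Sox11 and Sox12 are 7 genes of the Sox family of transcription factors, and they were read by 32 probe sets of an Affymetrix mouse expression array. They are 7 of the 18193 genes, and their probe sets are 32 of the 34945 probe sets, that the platform annotation ties to a single gene symbol. Every probe set of each gene was kept, with no filter on low signal. The genes were chosen with the signals of these same arrays in view, so their own levels and differences are given as a description. No p-value is given for them, and the calls that fell on them in the fit of all probe sets are not read as evidence.

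The 26 arrays came from mouse embryonic fibroblasts (MEFs) that had been immortalized, so that they divide without limit in culture. Per the labels, the parental lines were WA, WB and WC, and each received a pBabe retroviral vector with human c-myc, a pBabe vector with v-src, or the empty pBabe-puro vector. MYC is a growth-promoting transcription factor, and v-src is the oncogene of Rous sarcoma virus, a tyrosine kinase; the vector label of the v-src samples reads pBabe-human v-src. The stated purpose was to examine, in these transformed fibroblasts, a gene signature of anchorage-independent growth that had been derived from human breast cancer cells. Of the 9 groups of line and vector, 8 had 3 arrays and v-src in WB had 2, its replicate 1 not being analysed here. All groups, the empty vector included, were immortalized and retrovirally infected. The labels do not state whether replicate arrays are separate cultures, so spreads between them may be technical.

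Sox proteins bind DNA through a domain called the HMG box, which recognises a short ACAAAG-like or ACAATG-like sequence and bends the DNA. The family is divided into groups by sequence. Sox2 belongs to group B1 and keeps embryonic stem cells and neural progenitors undifferentiated; Sox4, Sox11 and Sox12 form group C, which is active in embryonic mesenchyme, developing neurons and many tumours. Sox5 and Sox6 form group D and have no activation domain of their own, and Sox9 is a group E factor. Sox9 together with Sox5 and Sox6 drives cartilage formation, and Sox9 also acts in neural crest, gonad and several epithelia.

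The values were probe set signals on a linear scale, set by the authors' processing to one common mean on every array. A difference is given below as log2(signal + 23), averaged over the arrays of a group and subtracted within a line, so that folds of weak probe sets are understated. A mean difference with its SD is over the 3 lines, while a mean signal with its SD is over the arrays of 1 group. A probe set is called weak where its mean log2 value over the 26 arrays was not above the 40th percentile of all probe sets, a signal of about 94.1. Of the 32 Sox probe sets 17 lay above it: 7 of 8 for Sox4, 6 of 6 for Sox11, 2 of 3 for Sox9, 1 of 3 for Sox12, 1 of 7 for Sox5, 0 of 4 for Sox6 and 0 of 1 for Sox2. Signals of different probe sets are not compared with each other, since each has its own probes.

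Across the probe sets tested, log2 signals of arrays of the same group correlated at 0.963 to 0.978 and those of different groups at 0.909 to 0.965. Summed signals of 10 fibroblast markers were 82720 to 101800 with c-myc, 75450 to 94300 with v-src and 95590 to 149000 with empty vector, and 4 of the 10 were called lower with c-myc and 4 with v-src. Mouse Myc (1424942_a_at) fell by 2.66 on the log2 scale with c-myc (SE 0.43, limma adjusted p = 0.0101) and differed by 0.09 with v-src (limma adjusted p = 0.932). Mouse Src (1423240_at) differed by 0.30 with v-src (limma adjusted p = 0.360). Whether these probe sets read the human or viral inserts is not given in the sources used here, so they do not check the vectors.

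Of all 34945 probe sets, limma called 5.23% higher and 5.01% lower with c-myc than with empty vector, and 3.83% higher and 3.95% lower with v-src than with empty vector, at an adjusted p under 0.05. Between the oncogenes, 6.87% were called higher and 8.05% lower with v-src than with c-myc. The same calls fell on 1 Sox probe set with c-myc (Sox12), on 6 with v-src (5 of Sox4 and 1 of Sox5) and on 5 with v-src against c-myc (all of Sox4), each of them higher. The median difference over the 32 Sox probe sets was 0.27 with c-myc, 0.42 with v-src and 0.17 for v-src against c-myc, beside medians of 0.05, 0.02 and -0.03 over all probe sets. Because the genes were chosen on these comparisons, nothing is read from these counts or medians. The comparisons with empty vector share the empty-vector arrays.

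**Figure D1:**
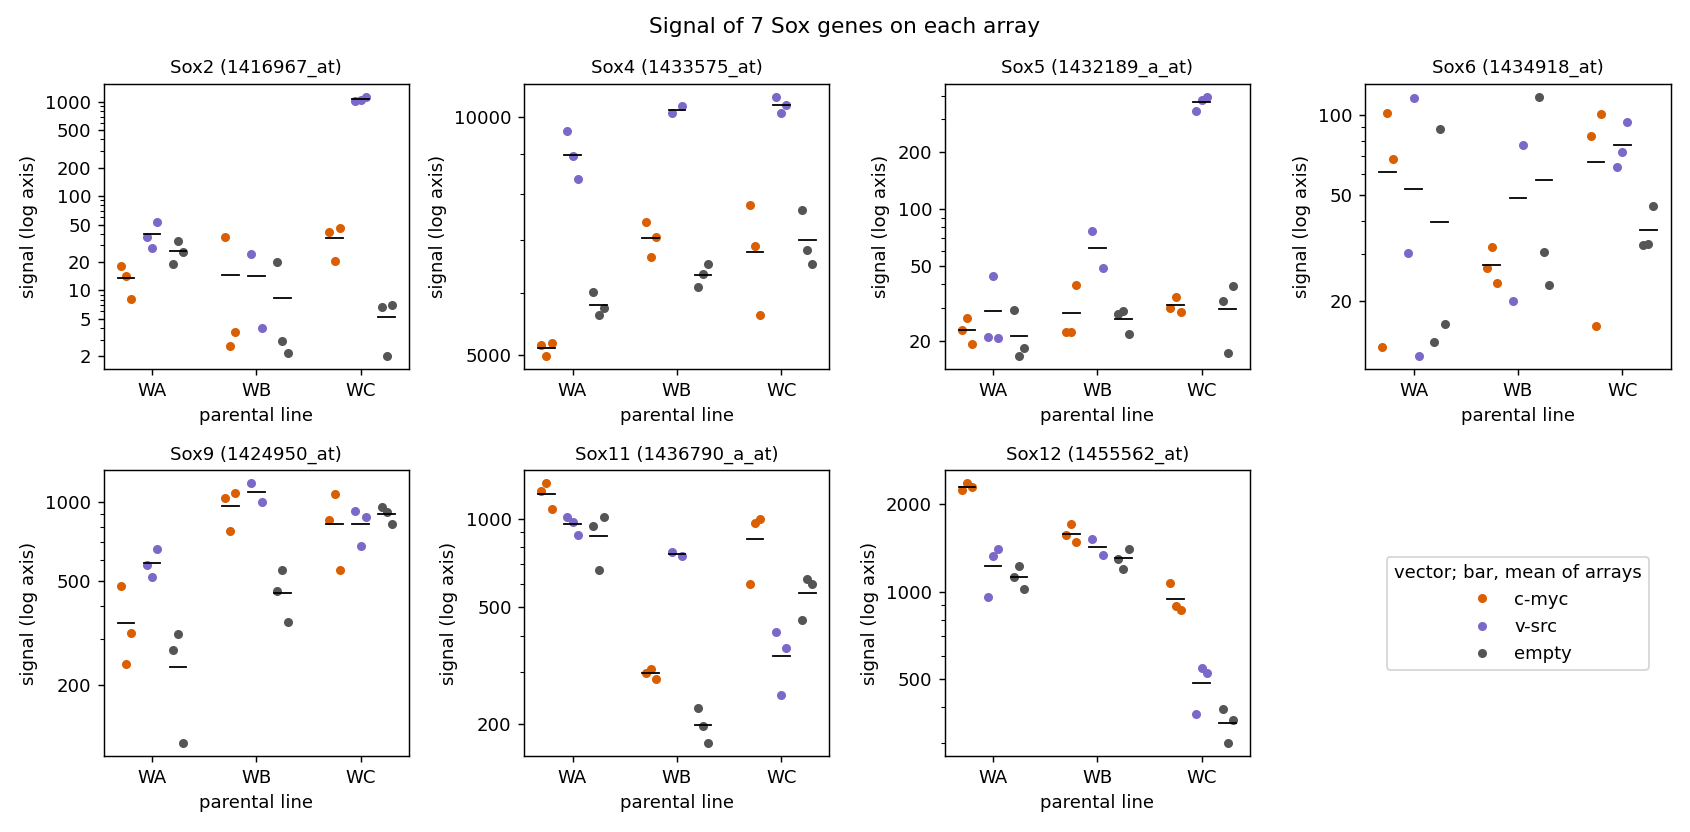
Signal of 1 probe set of each Sox gene on each array (log axis), by parental line, for c-myc, v-src and empty vector; points are arrays and bars are means. Each gene is shown by its probe set with the highest mean log2 signal, except Sox5. Sox5 is shown by 1432189_a_at, taken for its large v-src difference in WC, so its WC pattern follows from that choice. Sox2 and Sox5 stand high on the 3 WC v-src arrays and Sox4 on all v-src arrays. The Sox5 probe set with the highest mean log2 signal, 1452511_at, overlapped in WC (v-src 104.2 to 153.3, empty vector 36.54 to 110.3). Sox12 stands high on the WA and WC c-myc arrays against the other arrays of the same line, while the Sox6 arrays overlap in most lines.

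Sox2, a group B1 factor and one of the reprogramming factors that return fibroblasts to a stem cell state, had its only probe set (1416967_at) near background in 8 groups and between 1032 and 1139 in the ninth, WC with v-src. The gene lies on chromosome 3 of GRCm38.p6 from base 34649995 to base 34652461, inside the span of the long noncoding RNA gene Sox2ot. The 250 bases before its start are shown because its signal stood apart in WC with v-src, with the ACAAAG match in capitals (RefSeq, GRCm38.p6, chr3:34649745-34649994, plus strand).
Sox2: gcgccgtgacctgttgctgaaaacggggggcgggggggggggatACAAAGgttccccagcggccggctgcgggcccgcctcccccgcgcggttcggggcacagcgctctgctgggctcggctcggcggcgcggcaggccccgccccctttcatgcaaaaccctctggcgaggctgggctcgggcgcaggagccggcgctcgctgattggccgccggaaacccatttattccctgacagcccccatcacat
The match starts 206 bases before the annotated start.

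The c-myc arrays of Sox2 read 18.1, 14.2 and 8.08 in WA, 37.3, 2.58 and 3.58 in WB and 41.5, 20.4 and 45.6 in WC. With v-src they read 36.8, 28.2 and 53.1 in WA, 24.2 and 4.04 in WB and 1032, 1042 and 1139 in WC. With empty vector they read 18.9, 33.6 and 25.5 in WA, 19.9, 2.93 and 2.19 in WB and 6.74, 1.99 and 6.92 in WC. The 3 WC v-src arrays thus stood apart from the other 23 arrays, whose highest was a WA v-src array, and the v-src arrays of WA and WB overlapped those with empty vector.

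The mean Sox2 signal in WC with v-src was 1071 ± 59.1 (SD, n = 3 arrays). The next groups were WA with v-src at 39.4 ± 12.7, WC with c-myc at 35.8 ± 13.5 and WA with empty vector at 25.99 ± 7.33 (SD, n = 3 arrays each). The lowest was WC with empty vector, at 5.22 ± 2.80 (SD, n = 3 arrays). Below the highest group, no neighbours in this order differed by more than the larger of their SDs. The log2 difference between v-src and empty vector was 5.28 in WC, 0.34 in WA and 0.23 in WB, with a mean of 1.95 ± 2.88 (SD, n = 3 lines).

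The WC difference amounts to 38.9-fold on the log2(signal + 23) scale. It depends on the constant added, being 3.85 with 74 and 7.56 with 1, since the WC empty-vector signals are close to 0. With c-myc the Sox2 differences were -0.42, 0.18 and 1.04 in WA, WB and WC, with every array near background. In bulk RNA of this kind, a change in the number of cells that hold the transcript and a change in the transcript per cell cannot be told apart.

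All WC v-src arrays were above all arrays of the other 8 groups for 969 of the 34945 probe sets, or 2.77%. Sox2 was chosen on these signals and its highest other array (53.1) is near background, so its ratio of the lowest WC v-src array (1032) to that array, 19.4, is a description only. The next probe sets by this ratio were those of Mmp13, a collagenase, at 12.0, the interferon-induced genes Gbp6 at 10.9 and Oasl2 at 10.3, and Iigp1, an interferon-induced GTPase, at 10.2.

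The summed signal of 7 embryonic stem cell markers was 428.5 to 492.7 with v-src in WC, 549.4 to 665.9 with c-myc in WC and 442.1 to 550.2 with empty vector in WC, and in WA and WB it was 222.6 to 692.5. Mean signals of Pou5f1 (Oct4) and Nanog, the core pluripotency factors beside Sox2, were 30.5 and 15.3 in WC with v-src, against 17.5 and 12.6 in WC with empty vector. Of these 7 markers limma called 0 with c-myc and 0 with v-src (0 at an unadjusted p under 0.05 with either). The probe set of Sox2ot (1460587_at), whose gene spans Sox2, read 4.95 to 9.67 on the WC v-src arrays, within its range of 3.29 to 42.2 over all arrays.

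Summed signals of 6 neural progenitor markers were highest in the same group, at 2674 to 2786 with v-src in WC, against 1388 to 2005 with c-myc and 1511 to 1871 with empty vector in WC and 1294 to 2564 in WA and WB. Most of that sum was Nes (nestin, an intermediate filament of progenitor cells), with a mean of 2216 with v-src and 1274 with empty vector in WC. Sox1, another group B1 factor of neural progenitors, stayed at group means between 6.04 and 14.8. In WC, Msi1 and Fabp7 averaged 335.4 and 20.7 with v-src, against 189.3 and 12.3 with empty vector. Pax6 and Hes5 were lower there, at 115 and 18.8 with v-src, against 119.4 and 34.8 with empty vector. The 6 epithelium markers also separated v-src from empty vector in WC, with sums of 2410 to 6233 with v-src and 1241 to 4181 with c-myc, against 1070 to 1679 with empty vector, and in WA and WB they were 731.8 to 6163. Epcam, an epithelial adhesion molecule, made up most of the WC v-src sum. It averaged 3484 with v-src and 597.4 with empty vector in WC and was not called with v-src (limma adjusted p = 0.166). These Epcam values come from its probe set with the highest mean log2 signal, whose suffix _x_at marks probes shared with other sequences. Whether that signal was from Epcam alone was not tested, and the other Epcam probe set is not reported here. The other epithelium markers did not rise together in WC. Krt18 and Krt5 averaged 119.6 and 179.4 with v-src, against 100.8 and 147.8 with empty vector. Cdh1, Krt8 and Cldn4 were lower, at 76.2, 156.5 and 108 with v-src, against 104.9, 280.7 and 129.5 with empty vector. Whether neural progenitor or epithelial cells were present, or had a part in the Sox2 signal, was not tested.

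Sox4, a group C factor with roles in heart, lymphocyte and nervous system development and raised in many carcinomas, was higher with v-src in all 3 lines. It is a gene without introns on chromosome 13, bases 28948919 to 28953699 of GRCm38.p6. The 250 bases before its start are shown because its probe set with the highest mean log2 signal was higher in every v-src group. No motif searched for is in its window (RefSeq, GRCm38.p6, chr13:28953700-28953949, minus strand).
Sox4: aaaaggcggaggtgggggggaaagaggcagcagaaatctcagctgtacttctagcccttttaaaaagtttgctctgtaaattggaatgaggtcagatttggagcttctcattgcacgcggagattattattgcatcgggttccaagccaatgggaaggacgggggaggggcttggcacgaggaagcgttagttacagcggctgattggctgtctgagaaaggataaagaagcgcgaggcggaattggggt

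The lead probe set of Sox4, the one with the highest mean log2 signal (1433575_at), read 5150.3, 4981 and 5174 with c-myc in WA, 7374, 6649 and 7058 in WB and 7748, 6872 and 5626 in WC. With v-src it read 9612, 8935 and 8353 in WA, 10119 and 10336 in WB and 10623, 10138 and 10356 in WC. With empty vector it read 6017, 5619 and 5732 in WA, 6103, 6342 and 6525 in WB and 7625, 6799.6 and 6532 in WC. Every v-src array was above every c-myc and every empty-vector array, with no overlap between lines either.

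The lead Sox4 probe set differed by 0.63, 0.69 and 0.57 between v-src and empty vector in WA, WB and WC. The mean was 0.63 ± 0.06 (SD, n = 3 lines), or 1.55-fold. Against c-myc, v-src was higher by 0.66 ± 0.14 (SD, n = 3 lines). With c-myc, Sox4 differed from empty vector by -0.18, 0.15 and -0.06 in WA, WB and WC, a mean of -0.03 ± 0.17 (SD, n = 3 lines), so the lines did not share a direction.

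The Sox4 probe sets gave different sizes for the same gene. The largest difference between v-src and empty vector was at 1419156_at, with 1763, 1587 and 1393 in WA, 1678 and 1714 in WB and 2123, 2080.5 and 2005 in WC with v-src. With empty vector the same probe set read 354, 557 and 471 in WA, 428, 687 and 389 in WB and 687, 658 and 506 in WC. That is a mean difference of 1.74 ± 0.02 (SD, n = 3 lines), or 3.34-fold, close in size in all lines.

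Between these lay 1419157_at at 1.18 ± 0.04, 1449370_at at 1.16 ± 0.16 and 1419155_a_at at 0.99 ± 0.15 (SD, n = 3 lines each), also with no overlap of v-src and empty-vector arrays in any line. A sixth probe set, 1455867_at, differed by 0.50 ± 0.10 and did not overlap either, but was not called. The other two, 1458332_x_at and the weak 1443778_at, differed by 0.36 ± 0.45 and 0.40 ± 0.61, and their arrays overlapped; the suffix _x_at marks probes shared with other sequences. Non-overlap of all v-src with all empty-vector arrays in each of the 3 lines was met by 5.03% of all probe sets and by 7 Sox probe sets, the 6 of Sox4 and 1 of Sox5, and nothing is read from this count.

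**Figure D2:**
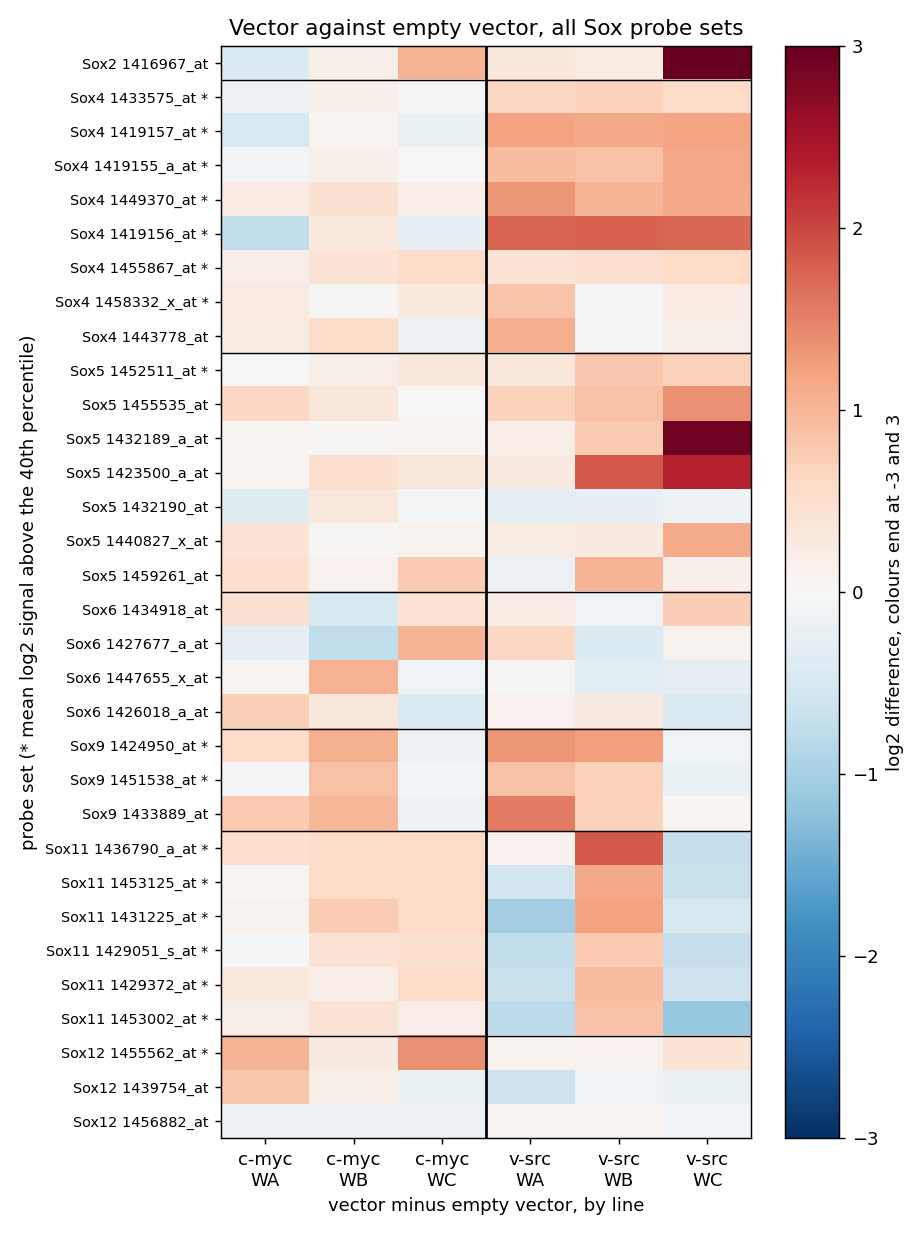
Log2 difference of each of the 32 Sox probe sets from empty vector, for c-myc (left) and v-src (right) in each line; colours end at -3 and 3, and stars mark probe sets whose mean log2 signal was above the 40th percentile. Sox4 is red in all 3 v-src columns for 6 of its 8 probe sets, Sox11 is red in WB and blue in WC with v-src, and Sox2 and 2 Sox5 probe sets are darkest in WC with v-src.

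Sox11, the group C factor best known for neuron differentiation and for its high level in human mantle cell lymphoma, differed from empty vector in opposite directions with v-src in WB and WC. It is on chromosome 12, bases 27334268 to 27342718 of GRCm38.p6. Its lead probe set (1436790_a_at) read 1239, 1318 and 1082 with c-myc in WA, 298, 308 and 285 in WB and 597, 965 and 999 in WC. With v-src it read 1009.8, 976 and 879 in WA, 772 and 746 in WB and 410.2, 251 and 362 in WC. With empty vector it read 941, 667 and 1012 in WA, 226, 197 and 172 in WB and 453, 625 and 597 in WC.

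In WB both v-src arrays were above all empty-vector arrays, in WC all v-src arrays were below them, and in WA they overlapped. The differences were 0.14, 1.83 and -0.69 in WA, WB and WC, and their mean of 0.43 ± 1.28 (SD, n = 3 lines) is smaller than its spread. At each of the 6 Sox11 probe sets, which read the same gene, v-src was higher in WB by 0.79 to 1.83 and lower in WC, with differences from -0.47 to -1.13, although arrays of 1431225_at overlapped in WC. In WA the other 5 were lower with v-src, with differences from -0.56 to -1.05. Nothing here tests whether the lines differ.

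With c-myc the lead Sox11 probe set differed from empty vector by 0.48, 0.54 and 0.57 in WA, WB and WC, a mean of 0.53 ± 0.05 (SD, n = 3 lines) or 1.44-fold. The lowest c-myc array lay above the highest empty-vector array in WA and WB, and in WC they overlapped. The other probe sets had means from 0.27 to 0.49 with c-myc, and in WA their differences ranged from -0.05 to 0.31. The empty-vector level itself differed between lines, at 874 ± 182 for WA, 198 ± 27.1 for WB and 558 ± 92.3 for WC (SD, n = 3 arrays each). Against the c-myc arrays, the v-src differences at the lead probe set were 1.29 in WB, -0.34 in WA and -1.26 in WC.

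**Figure D3:**
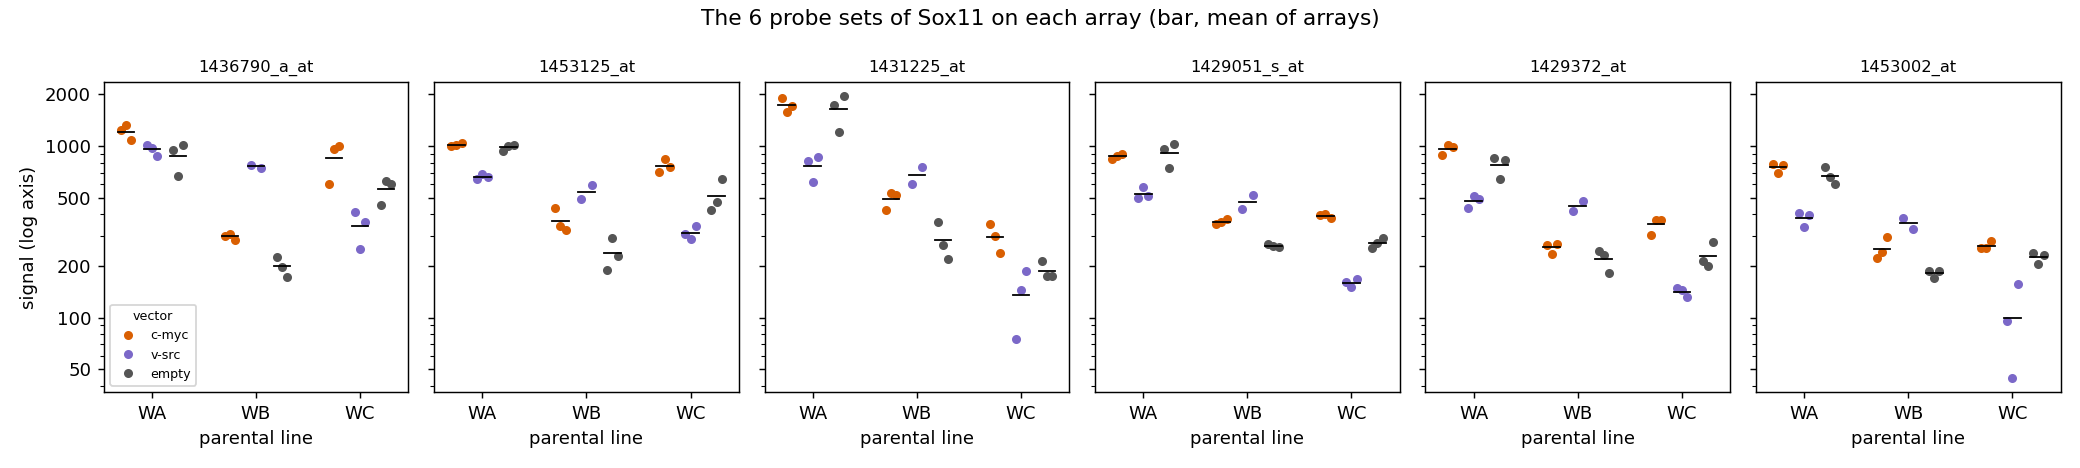
Signal of the 6 Sox11 probe sets on each array (log axis shared by the panels), by parental line, for c-myc, v-src and empty vector; points are arrays and bars are means. In every panel the 2 WB v-src arrays stand above the 3 WB empty-vector arrays, and the mean of the WC v-src arrays lies below that of WC with empty vector.

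Sox12, the third group C factor and the one whose loss in mice has the mildest effect, was highest with c-myc in each line at its lead probe set. It lies on chromosome 2, bases 152393611 to 152398046 of GRCm38.p6. MYC binds the E-box CACGTG. The 250 bases before the start of Sox12 are shown because its lead probe set was higher with c-myc in each line (RefSeq, GRCm38.p6, chr2:152398047-152398296, minus strand). No motif searched for is in its window, which says only that these letters are not there.
Sox12: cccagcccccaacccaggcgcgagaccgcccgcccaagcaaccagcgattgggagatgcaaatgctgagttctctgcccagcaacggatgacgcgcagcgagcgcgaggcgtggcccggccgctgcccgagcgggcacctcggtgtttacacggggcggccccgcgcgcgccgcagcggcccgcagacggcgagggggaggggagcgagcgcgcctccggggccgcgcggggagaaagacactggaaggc
C and G made up 76.7% of the full 300-base window of Sox12.

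The lead Sox12 probe set (1455562_at) read 2243, 2366 and 2305 with c-myc in WA, 1567, 1709 and 1480.5 in WB and 1069, 894 and 863 in WC. With v-src it read 959, 1324 and 1399.5 in WA, 1516 and 1342 in WB and 376, 545 and 524 in WC. With empty vector it read 1123, 1221 and 1023 in WA, 1299, 1201 and 1402 in WB and 392, 299 and 361 in WC. In each line every c-myc array was above every empty-vector array, whereas v-src and empty-vector arrays overlapped in each line.

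With c-myc Sox12 differed from empty vector by 1.03, 0.28 and 1.37 in WA, WB and WC, a mean of 0.89 ± 0.56 (SD, n = 3 lines) or 1.86-fold. With v-src the mean was 0.22 ± 0.17, and v-src was below c-myc by a mean difference of -0.67 ± 0.45 (SD, n = 3 lines each). The parental lines also differed, since the empty-vector means of WA, WB and WC were 1122 ± 99.2, 1301 ± 101 and 350.5 ± 47.5 (SD, n = 3 arrays each). The weak probe set 1439754_at had c-myc signals of 106, 117 and 119 in WA, above 72.5, 27.4 and 71.5 with empty vector. Its c-myc difference was -0.2 in WC, and its mean difference was 0.27 ± 0.52 (SD, n = 3 lines). The other weak one, 1456882_at, was at or under 35.9 on all arrays and differed by -0.15, -0.16 and -0.17 with c-myc in WA, WB and WC.

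Sox5, a group D factor that assists Sox9 in cartilage and acts in neurons and melanocytes, was near background in most groups and higher with v-src in WC at part of its probe sets. The gene covers bases 143828425 to 144782287 of chromosome 6 in GRCm38.p6. Its probe set 1432189_a_at, named here after its values were seen, read 22.8, 26.5 and 19.2 with c-myc in WA, 22.2, 22.2 and 39.6 in WB and 29.7, 34.2 and 28.5 in WC. With v-src it read 21.0, 44.2 and 20.7 in WA, 76.0 and 48.9 in WB and 331, 378 and 395 in WC. With empty vector it read 29.1, 16.5 and 18.2 in WA, 27.9, 28.6 and 21.7 in WB and 32.6, 17.2 and 39.1 in WC.

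The WC v-src arrays were above all others at this Sox5 probe set, the WB v-src arrays were above all of its remaining arrays, and WA did not separate. The differences between v-src and empty vector were 0.20, 0.78 and 2.91 in WA, WB and WC, the last being 7.53-fold. As for Sox2, the WC value depends on the constant added, at 2.09 with 74 and 3.66 with 1. The probe set 1423500_a_at gave 0.26, 1.83 and 2.31 in WA, WB and WC (mean 1.47 ± 1.07, SD, n = 3 lines), from 178, 159 and 229 with v-src in WC against 20.1, 11.4 and 27.9 with empty vector in WC.

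Another weak probe set of Sox5, 1455535_at, was higher with v-src with no overlap in any line, by 0.69, 0.88 and 1.36 in WA, WB and WC. The lead Sox5 probe set (1452511_at), the only one above the 40th percentile, read 123, 162 and 111 with v-src in WA, 154 and 143 in WB and 104, 153 and 132 in WC. Arrays with empty vector gave 118, 82.4 and 96.4 in WA, 70.8, 103 and 54.3 in WB and 81.7, 36.5 and 110.3 in WC. Its mean difference was 0.62 ± 0.25 (SD, n = 3 lines), and it separated v-src from empty vector in WB alone. The other three probe sets differed by -0.24 to 0.53 on average. One of them, 1440827_x_at, differed by 1.11 in WC, where all v-src arrays (57.0 to 60.6) were above all empty-vector arrays (2.5 to 27.4). In WC the v-src arrays of 1432190_at, 1459261_at and the lead probe set overlapped those with empty vector. With c-myc the 7 means were -0.04 to 0.47.

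Sox6, the partner of Sox5 in group D and a repressor of embryonic globin genes in red cell precursors, was weak at all of its 4 probe sets. The gene covers bases 115470872 to 116040776 of chromosome 7 in GRCm38.p6. The lead probe set (1434918_at) read 13.3, 102 and 68.3 with c-myc in WA, 26.5, 31.7 and 23.3 in WB and 83.4, 16.1 and 100.3 in WC. With v-src it read 30.3, 116 and 12.3 in WA, 19.9 and 76.9 in WB and 63.8, 72.5 and 93.9 in WC. With empty vector it read 14.02, 88.4 and 16.3 in WA, 117, 30.6 and 22.9 in WB and 32.4, 32.7 and 45.5 in WC.

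These Sox6 arrays overlapped in WA and WB, and in WC all v-src arrays lay above the empty-vector ones. The mean difference from empty vector was 0.29 ± 0.42 with v-src and 0.13 ± 0.53 with c-myc (SD, n = 3 lines each). Over the 4 probe sets these means were between -0.20 and 0.32, and each was at or below its SD over the lines. The antisense gene Sox6os read 2.69 to 41.8 over all arrays.

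Sox9, the group E master factor of cartilage and testis, was higher with v-src in WA and WB and not in WC. It lies on chromosome 11, bases 112782210 to 112787757 of GRCm38.p6. Its lead probe set (1424950_at) read 477, 241 and 315 with c-myc in WA, 1033, 772 and 1079 in WB and 848, 1069.5 and 547 in WC. With v-src it read 576, 517 and 662 in WA, 1173 and 993 in WB and 921, 679 and 875 in WC. With empty vector it read 271, 314 and 120.4 in WA, 456, 547 and 347 in WB and 953, 916 and 818 in WC.

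In WA and WB the v-src arrays of Sox9 did not overlap those with empty vector, nor did the c-myc arrays in WB. The differences between v-src and empty vector were 1.32, 1.24 and -0.12 in WA, WB and WC, a mean of 0.81 ± 0.81 (SD, n = 3 lines). With c-myc they were 0.55, 1.06 and -0.17, a mean of 0.48 ± 0.62 (SD, n = 3 lines). The line with the highest empty-vector signal, WC at 896 ± 69.6, was the one in which neither vector had a higher mean than empty vector, against 235 ± 102 in WA and 450.3 ± 100.2 in WB (SD, n = 3 arrays each). A second probe set, 1451538_at, gave 0.88, 0.69 and -0.19 with v-src and the weak 1433889_at gave 1.55, 0.68 and 0.07, in the same lines.

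Promoter windows of RefSeq, 250 bases before to 50 bases after the annotated start in GRCm38.p6, were matched by symbol for 6 of the 7 genes, with 11 windows in all. Both strands were searched for the E-box CACGTG, the AP-1 motif TGANTCA, the STAT motif TTCNNNGAA and the Sox motifs ACAATG and ACAAAG, and matches that share bases were each counted. Of all 32851 windows in the table, 7.15% held the E-box, 7.81% the AP-1 motif, 8.3% the STAT motif, 12.6% ACAATG and 18.7% ACAAAG. No window of the 6 genes held the E-box or the AP-1 motif. The STAT motif was in 2 of the 6 windows of Sox6, ACAAAG was in the window of Sox2 and in 5 of those of Sox6, and ACAATG was in the window of Sox5 and in 2 of those of Sox6. The windows of Sox4, Sox11 and Sox12 held none of the 5, and a match or its absence is a description of these letters alone.

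For each Sox gene, the genes most like its lead probe set were taken by Pearson r over the 9 averages of line and vector, among 11986 candidate genes, as a description. The points share parental lines and vectors. For Sox4 they were Bcl3, a coactivator of NF-kB, with r of 0.988, and Chst11, a chondroitin sulfotransferase, with 0.978. Bcl3 had mean signals of 749.8, 1044 and 1253 with v-src in WA, WB and WC, against 72.6, 82.8 and 214.8 with empty vector. For Sox2 they were Btbd3 at 0.957 and the magnesium channel gene Trpm6 at 0.954, while their rank correlations were 0.5 and 0.433, and 1 of the 9 points, WC with v-src, lay far from the rest. Btbd3 was at 2193 there and at 580.8 to 804.4 in the other 8 groups.

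For Sox9 the most alike were Jund, an AP-1 subunit, at 0.988 and Ccdc191 at 0.952. For Sox12 they were Ppp1r8, a regulator of protein phosphatase 1, at 0.985 and Cbx2, a Polycomb subunit, at 0.974. Jund read 6645, 7570 and 6859 with v-src in WA, WB and WC, against 4956, 6004 and 7240 with empty vector. That Jund, like Sox9, was not higher in WC follows from its choice by likeness over these same averages. Cbx2 read 989.7, 830.2 and 724.4 with c-myc, against 702.5, 693.3 and 466.8 with empty vector. The values were 0.967 (Elovl3) and 0.958 (Adamts7) for Sox5, 0.943 (Zfp493) and 0.928 (Ebp) for Sox11 and 0.912 (Rtraf) and 0.897 (Pars2) for Sox6.

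Among the other 13 Sox family genes measured, each by its lead probe set, 0 were called with c-myc (limma, 1 at an unadjusted p under 0.05) and 1 rose with v-src, Sox7, a group F factor of endothelium and primitive endoderm. Sox7 (1416564_at, a weak probe set by its mean over all arrays) had mean signals of 171.5, 452.4 and 450.2 with v-src in WA, WB and WC, against 67.1, 45.3 and 36.4 with empty vector. The log2 difference was 2.41 (SE 0.30, limma adjusted p = 0.0045), and it was 1.43, 2.83 and 2.98 in the 3 lines. The call was lost without WB or without WC (limma adjusted p up to 0.065), and the gene's other probe set, at a mean signal of 16.3, differed by 0.04.

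Sox7 was also 2.23 higher with v-src than with c-myc (limma adjusted p = 0.00357). Sox10, the neural crest factor of group E, differed by 0.86 with c-myc and 0.89 with v-src and did not pass (limma adjusted p = 0.0881 and 0.0887). Sox21, the group B2 factor named for the highest mean of this list, had group means of 1106 to 3060 and differed by 0.31 with c-myc and 0.26 with v-src. The median difference over the 13 was -0.06 with c-myc and 0.06 with v-src, beside 0.04 and 0.03 over the lead probe sets of all genes.

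Of the Tcf and Lef factors, HMG box proteins that carry the Wnt signal to DNA, 3 of 4 were measured. With c-myc, limma called 0 (0 at an unadjusted p under 0.05), and with v-src Tcf7l2 alone fell, by 1.17 (SE 0.27, limma adjusted p = 0.0368). It averaged 225.9, 374.1 and 480.9 with v-src in WA, WB and WC, against 532.4, 788.3 and 1292 with empty vector. The call was lost in 5 of 37 alternative settings, namely no intensity trend and leaving out WB, WC, replicate 1 of WA with c-myc or replicate 1 of WC with c-myc, with limma adjusted p up to 0.156. Tcf7l1 differed by -1.25 with v-src (limma adjusted p = 0.0523), and Lef1 by 0.07.

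Of 14 pluripotency partners and targets of Sox2, 13 were not called with either vector. Klf4, another reprogramming factor, fell with both, by 1.70 with c-myc (SE 0.20, limma adjusted p = 0.00467), and with v-src it fell by 1.57 (SE 0.20, limma adjusted p = 0.0045). It averaged 354.1, 686.4 and 672.2 with c-myc and 611.8, 703.4 and 498.1 with v-src in WA, WB and WC, against 1543, 2444 and 1691 with empty vector. Without WB the v-src call was lost (limma adjusted p = 0.0649). The lowest of the list, Tdgf1, had group means of 3.71 to 7.33. The list's medians were 0.24 with c-myc and -0.03 with v-src, and between v-src and c-myc limma called 0 of the 14 (2 at an unadjusted p under 0.05).

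Of 16 cartilage genes linked to Sox9, Sox5 and Sox6, 1 was called with c-myc and 2 with v-src, all of them lower. Col11a1, a chain of cartilage collagen XI, fell by 1.90 with c-myc (SE 0.30, limma adjusted p = 0.0101), and with v-src it fell by 2.56 (SE 0.30, limma adjusted p = 0.0038). Col2a1, the main cartilage collagen and a direct target of Sox9, fell by 3.16 with v-src (SE 0.55, limma adjusted p = 0.0142). Its means were 31.4, 43.1 and 58.6 with v-src in WA, WB and WC, against 318.9, 264.4 and 2069 with empty vector. Col2a1 was lower with v-src in WA and WB, where Sox9 was higher, and in WC, where Sox9 was not. A link between the levels of these genes was not tested.

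The c-myc call of Col11a1 and the v-src call of Col2a1 were lost without WA and without WB, with limma adjusted p up to 0.0935 and 0.0763. Genes of this list that were not called differed in both directions in WC. Hapln1, the cartilage link protein, averaged 576.9 with v-src in WC against 115.3 with empty vector in WC, and aggrecan (Acan) 402.3 against 194.1. Comp, a cartilage matrix protein, averaged 170.7 with v-src in WC against 533.6 with empty vector in WC, and Matn4, a matrilin, 81.8 against 209.9. In WA and WB the v-src difference of Acan was -0.32 and -0.38. Col9a2, the lowest of the list, stayed at 4.92 to 7.74. The summed signal of 6 chondrocyte markers was 1527 to 1638 with v-src and 1457 to 2223 with c-myc in WC, against 2660 to 3987 with empty vector in WC, and in WA and WB it was 587.6 to 1073. Col2a1 made up most of the WC empty-vector sum, at a mean of 2069, against 955.5 with c-myc and 58.6 with v-src. Of the other markers in WC, Hapln1, Acan and Col9a1 (331.7 against 248.3) averaged higher with v-src than with empty vector. Comp and Matn1 (58.2 against 89.6) averaged lower.

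Of 14 neural progenitor and neuron genes, 13 were analysed here; 2 fell with c-myc, and 1 rose and 2 fell with v-src. Map2, a microtubule-associated protein of neurons, fell by 2.91 with v-src (SE 0.20, limma adjusted p = 0.000986), and with c-myc it fell by 1.26 (SE 0.20, limma adjusted p = 0.00931), averaging 90.35, 197.1 and 97.2 with v-src, against 957.2, 1415 and 861.1 with empty vector. Ncam1, a neural cell adhesion molecule, fell by 2.20 with v-src (SE 0.25, limma adjusted p = 0.00329), and with c-myc it fell by 1.83 (SE 0.25, limma adjusted p = 0.00627). Msi1, an RNA-binding protein of neural progenitors, rose by 0.79 with v-src (SE 0.19, limma adjusted p = 0.0469).

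The Msi1 call was lost in 17 of 37 alternative settings, with limma adjusted p up to 0.287: with the larger constant, with quantile normalization, without any of the 3 lines, and without any of 12 single arrays. Those arrays were replicates 1 and 3 of WA, 3 of WB and 2 of WC with empty vector, replicates 1 and 3 of WA, 1 of WB and 1 of WC with c-myc, and replicates 3 of WA, 2 and 3 of WB and 3 of WC with v-src. The c-myc call of Map2 was lost without any one of the lines (limma adjusted p up to 0.0642). Nes, named for the highest mean of the list, differed by 0.49 with v-src (limma adjusted p = 0.083), and Neurog2, the lowest, had group means of 7.08 to 14.8.

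Of 12 glial and melanocyte genes, 10 were analysed here, and limma called 0 with c-myc (1 at an unadjusted p under 0.05) and 0 with v-src (0 at an unadjusted p under 0.05). Mitf, the melanocyte master factor and the highest of them, averaged 115.5, 299.8 and 630.8 with v-src in WA, WB and WC, against 135.9, 154.3 and 176.4 with empty vector, a difference of 0.79 that did not pass (limma adjusted p = 0.223). Olig2, the lowest, stayed at 2.02 to 15.6. Of 7 genes linked to group C factors, 1 fell with c-myc and 0 were called with v-src (limma, 2 at an unadjusted p under 0.05). Ccnd1, cyclin D1, fell by 0.71 with c-myc (SE 0.17, limma adjusted p = 0.0357), a call lost without the intensity trend, without WA and without WC (limma adjusted p up to 0.238).

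Prox1 was the lowest of the group C list, with group means of 28.1 to 60.0. Set against c-myc, v-src gave higher Tubb3, a neuronal tubulin, by 1.30 (limma adjusted p = 0.0281), and higher Ccnd1 by 0.70 (limma adjusted p = 0.0281), while Pou3f2 fell by 0.70 (limma adjusted p = 0.046). In the same comparison Map2 fell by 1.65 (limma adjusted p = 0.00226), Tcf7l2 fell by 1.20 (limma adjusted p = 0.0218) and Col11a2 fell by 1.19 (limma adjusted p = 0.0251). The calls of Tubb3, Tcf7l2 and Col11a2 were lost without WB and without WC (limma adjusted p up to 0.166, 0.0796 and 0.18), and that of Col11a2 also without WA c-myc replicate 3 or WA v-src replicate 1. The Ccnd1 call was lost without the intensity trend, without WA and without WC (limma adjusted p up to 0.204), and the Pou3f2 call in 18 of 35 settings, each line left out among them (limma adjusted p up to 0.288). These lists were drawn up with earlier results of these arrays known, and their counts are not independent evidence of a direction.

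**Figure D4:**
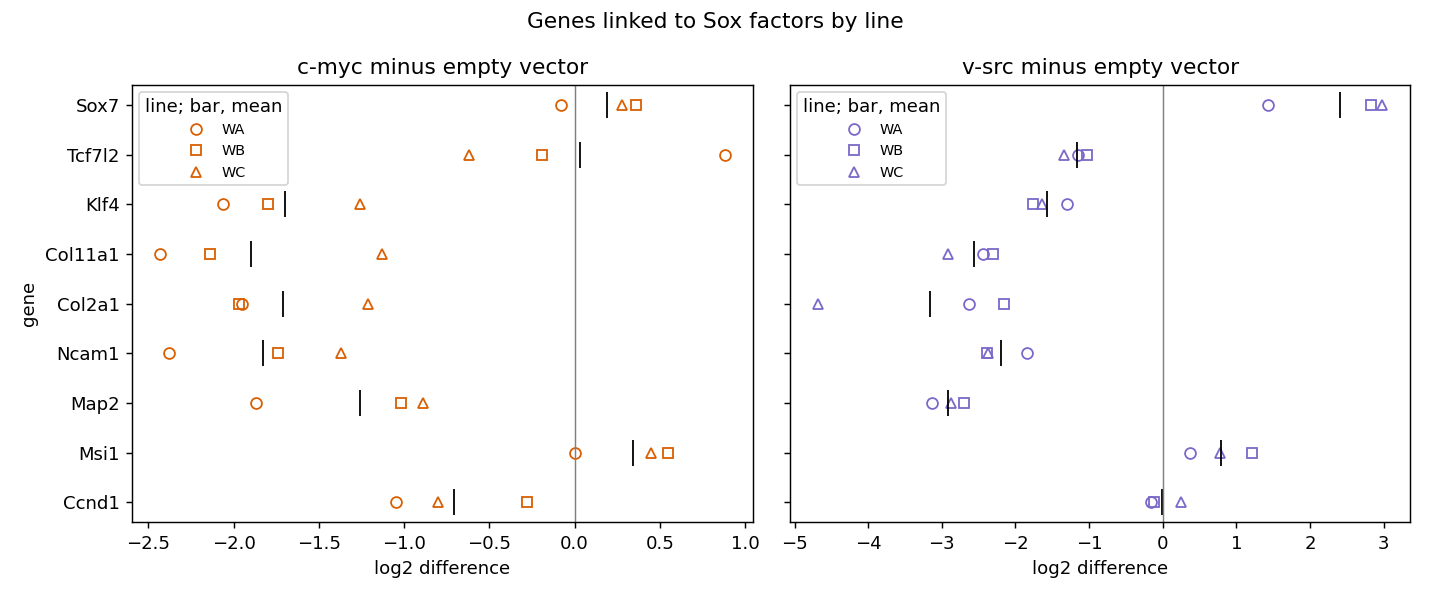
Log2 difference from empty vector, with c-myc (left) and v-src (right), of the named genes linked to Sox factors, by the lead probe set; symbols are the 3 lines and bars their mean. Klf4, Col11a1, Col2a1, Ncam1 and Map2 lie left of 0 in all lines with both vectors, Tcf7l2 lies left of 0 in all lines with v-src, and Sox7 lies right of 0 in all lines with v-src.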

How the data were processed

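Per the labels' protocols, total RNA was extracted from cells lysed in the dish and biotinylated cRNA was hybridized. The authors deposited a linear intensity for each of 45101 probe sets on 26 arrays, made with MAS5 per the submitters' processing notes. The MAS5 version is not given in the sources used here. On every array the mean after trimming 2% at each end was 500, and array medians were 89.0 to 134.6. Detection calls were not used, so a low signal is no call of absence, and the number of arrays limits the precision.

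The platform annotation gave 34945 probe sets a single gene, 932 several genes and 9211 none, and 64 control probe sets were left out. RefSeq of GRCm38.p6 changed 0 symbols and gave coordinates and promoter windows. Signals became log2(value + 23), the constant being the rounded 20th percentile. Arrays of 1 line and vector were averaged, and the 9 averages were fitted with line and vector in limma 3.58.1 (R 4.3.3) with an intensity trend, 4 residual and 4.13 prior degrees of freedom and Benjamini-Hochberg adjustment over all 34945 probe sets, genome-wide, at 0.05. An SE rests on a spread pooled over the vectors. The fit was tested on simulated data.

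The 7 genes, the gene lists and the naming rule were chosen with earlier results of these data known. The rule named every probe set of the 7 genes, and from each list, by lead probe set, up to 3 called genes with the largest rise and fall against empty vector and the genes with the highest and lowest mean. It also named the 2 genes most like each Sox gene. Genes of v-src against c-myc were named after their values were seen. So were Hapln1, Acan, Comp, Matn4, Col9a1, Matn1, Epcam and the other epithelium markers, Sox10, Tcf7l1, Lef1 and the genes ranked with Sox2 in WC. Esrrb, Dppa5a, Pax6, Fabp7 and Hes5 were also named after their values were seen. Some genes of the lists are not reported here. Replicate numbers were not used as pairs in the main fit. Deviations from group means correlated at -0.09 to 0.119 (median -0.00146) for the 25 same-numbered pairs of a line, 1 of them over 0.1. For the 50 differently numbered pairs they correlated at -0.152 to 0.0762 (median -0.00277). The free-text sample description speaks of other material and was not used. Columns not mapped to a sample numbered 0.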

Additional observations from a re-analysis of the deposited data

Results flagged for a closer look

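Some Sox probe sets had every array of a vector above empty vector in 1 line and every array below it in another. These differences between lines were not tested. The values are the largest minus the smallest log2 difference of the 3 lines. For v-src against empty vector, Sox11 spread by 2.51 at 1436790_a_at (above in WB, below in WC). It spread by 2.27 at 1431225_at (above in WB, below in WA). Above in WB and below in both WA and WC, it spread by 1.79 at 1453125_at, 1.54 at 1429051_s_at, 1.62 at 1429372_at and 2.02 at 1453002_at. For c-myc against empty vector, Sox2 spread by 1.46 (above in WC, below in WA, all signals near background) and Sox4 by 0.33 at 1433575_at (above in WB, below in WA).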

How the results depend on the processing

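The fit of the 9 averages called 3578 probe sets with c-myc, 2718 with v-src and 5213 between v-src and c-myc. Treating the 26 arrays as separate values called 11359, 10327 and 11941 of them without a replicate block, and 11201, 9960 and 11753 with the replicate block. Without line WA the counts were 207, 927 and 2074, without WB 1436, 625 and 2527, and without WC 191, 692 and 1365, fits with fewer samples. Without the intensity trend c-myc called 1913, and with 1 probe set per gene above the 40th percentile, hence fewer features tested, v-src called 1745 and v-src against c-myc 3311. Leaving out single arrays gave 3104 to 3615, 2351 to 2760 and 4832 to 5260. The constant added sets weak values: 74 gave 3.85 for Sox2 and 2.09 for Sox5 (1432189_a_at) in WC with v-src and 0.48 for Sox11 with c-myc, and 1 gave 7.56 for Sox2 and 3.66 for Sox5. Without single arrays these were 5.19 to 5.32, 2.73 to 3.04 and, for Sox11, 0.47 (without WA empty replicate 2) to 0.61 (without WC c-myc replicate 1). Quantile normalization gave Sox4 with v-src 0.74. For the other moved values the cause was not tested. Leaving out 1 array turned the sign of the mean difference of Sox6 with v-src against c-myc (lowest -0.05) and Sox4 with c-myc (highest 0.01), and leaving out 1 line that of Sox2 with c-myc (lowest -0.12), Sox4 with c-myc (highest 0.05), Sox6 with c-myc (lowest -0.03), Sox11 with v-src (lowest -0.27) and Sox11 with v-src against c-myc (highest 0.48). The probe sets of Sox2 and Sox6 were all weak by their mean log2 value over the arrays. A setting limited to probe sets above the 40th percentile therefore gave no result for these genes. No call of a named gene reversed in the 37 settings run (35 for Sox7, Col11a2 and Pou3f2).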
